A study of Mus musculus with 3 samples.

Results

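The cytosolic ribosomal protein genes were followed here across the cells of mouse liver tumours. They were taken by symbol from the feature table, as Rpl or Rps with a number and an optional letter or number, with Rplp0, Rplp1, Rplp2 and Rpsa and without symbols marked -ps. The rule found 84 of 32285 features, 52 of the large and 32 of the small subunit, and used no measured value. Among cells that passed a cell type gate, 83 of the 84 had at least 30 UMIs (unique molecular identifiers, a count of captured transcripts) in every library. Rpl10l, an autosomal retrogene of Rpl10 known from testis, had 1, 2 and 1 UMIs in control, DU101 and DU102 and is named only here.

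These proteins are joined to ribosomal RNA in a small subunit that reads the message and a large subunit that forms the peptide bond, and a cell needs them in about equal number. Their mRNAs typically begin with a C followed by a run of pyrimidines, the 5′ terminal oligopyrimidine (TOP) tract, through which growth signals control their translation together. A few members have a paralogue or retrogene of their own, so that the make-up of the family, as well as its total, can differ between cell types. Naive lymphocytes hold many of these mRNAs for their small size, and neutrophils wind down ribosome production as they mature.

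The MYC-ON mice (C57BL6) were 18 weeks old, and live CD45+ cells, the leukocytes, of their liver tumours were sorted for 10x Genomics 3′ v3 libraries. There was 1 control library, 1 from mice treated with DU101 and 1 from mice treated with DU102. The labels do not say what DU101 and DU102 are, their dose or duration, how many mice were pooled or what drives the MYC transgene. With 1 library per group, a difference between libraries has no replicate check, and intervals cover counting error only. The libraries held 12639, 15686 and 13650 barcodes and 91013198, 106604935 and 96817875 UMIs in control, DU101 and DU102, and 10154, 13799 and 11461 cells were kept. Pairs of libraries shared 37 to 57 barcodes. Marker genes gave 64.6%, 63.7% and 69.2% of them to exactly 1 of 22 cell types, named here for those gates, and the rest were left out. The markers of a gate were 2.84-fold higher or more in it than in the other gated cells of the same library, and by a median of 42.7-fold over 66 gates and libraries. The same markers chose the cells, so these values describe the gates and do not test the cell type names. Hepatic tumour and endothelial cells were gated with Ptprc, the gene of CD45, absent or below its share of all UMIs. They are not leukocytes, the cells that the sort was for. The control library mixed sexes: 5390 of its cells had Xist and no Y-linked UMIs and 1834 the reverse, against 15 and 6455 cells in DU101 and 4 and 6011 in DU102.

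The starts of 64 members could be read from RefSeq promoters (GRCm38.p6, the build of the mm10 genome in the submitters' notes). A run of at least 6 pyrimidines that opens with C, on the sense strand, began between 20 bases before and 30 bases after an annotated start in 50 of the 64 (78.1%), against 39.0% of 27025 genes. The windows below run from 10 bases before to 20 after the annotated start, 5′ to 3′, with such runs in capitals (a run is cut where the window ends). They show Rpl14 and Rpl15 as clear examples and then the paralogue pairs whose use differed between cell types below.
Rpl14, chr9:120571507-120571536, plus strand: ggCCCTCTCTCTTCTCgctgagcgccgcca
Rpl15, chr14:18270967-18270996, minus strand: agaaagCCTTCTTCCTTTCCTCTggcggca
Rps27, chr3:90213629-90213658, minus strand: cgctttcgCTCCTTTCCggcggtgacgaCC
Rps27l, chr9:66946076-66946105, plus strand: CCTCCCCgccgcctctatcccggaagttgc
Rpl22, chr4:152325716-152325745, plus strand: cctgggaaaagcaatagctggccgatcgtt
Rpl22l1, chr3:28805498-28805527, plus strand: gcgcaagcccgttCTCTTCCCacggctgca
Rpl36a, chrX:134585644-134585673, plus strand: cccaggcaccgcctataaacttccgttgcg
Rpl36al, chr12:69184048-69184077, minus strand: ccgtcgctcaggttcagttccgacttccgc
Rps27 and Rpl22l1 carried a run beside the start, while Rpl22 had none in the searched span at either of its annotated starts. Rps27l and Rpl22 each have another annotated start, not printed, with no run. The runs of Rpl36a and Rpl36al began outside the printed window. A match of letters is a description and does not show where transcription began in these cells.

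Ribosomal protein genes made up 25.2% of all UMIs of kept cells in control, 25.4% in DU101 and 23.0% in DU102, but the share ranged widely between cell types. Naive-like CD8 T cells were highest, with 41.4%, 45.1% and 42.3% of their UMIs in control, DU101 and DU102. Mature neutrophils were lowest, with 5.02%, 6.04% and 4.13%. Next came several lymphocyte groups. B cells averaged 34.1% ± 1.08 (SD, n = 3 libraries), gamma-delta T cells 33.7% ± 1.42, NK cells 31.9% ± 1.32, effector CD8 T cells 31.7% ± 1.01 and conventional CD4 T cells 30.8% ± 0.643. Among the other lymphocytes, regulatory T cells were lower than these at 27.3% ± 0.968, and their range did not overlap that of the plasmacytoid dendritic cells that followed. Mononuclear phagocytes ran from 29.6% ± 0.706 in cDC1, the cross-presenting dendritic cells, through 22.8% ± 1.11 in classical monocytes and 19.9% ± 0.864 in macrophages to 15.8% ± 0.151 in Kupffer cells, the resident macrophages of the liver. The tumour cells themselves, 143 to 285 cells per library, had 27.4%, 32.9% and 30.3%.

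**Figure D1:**
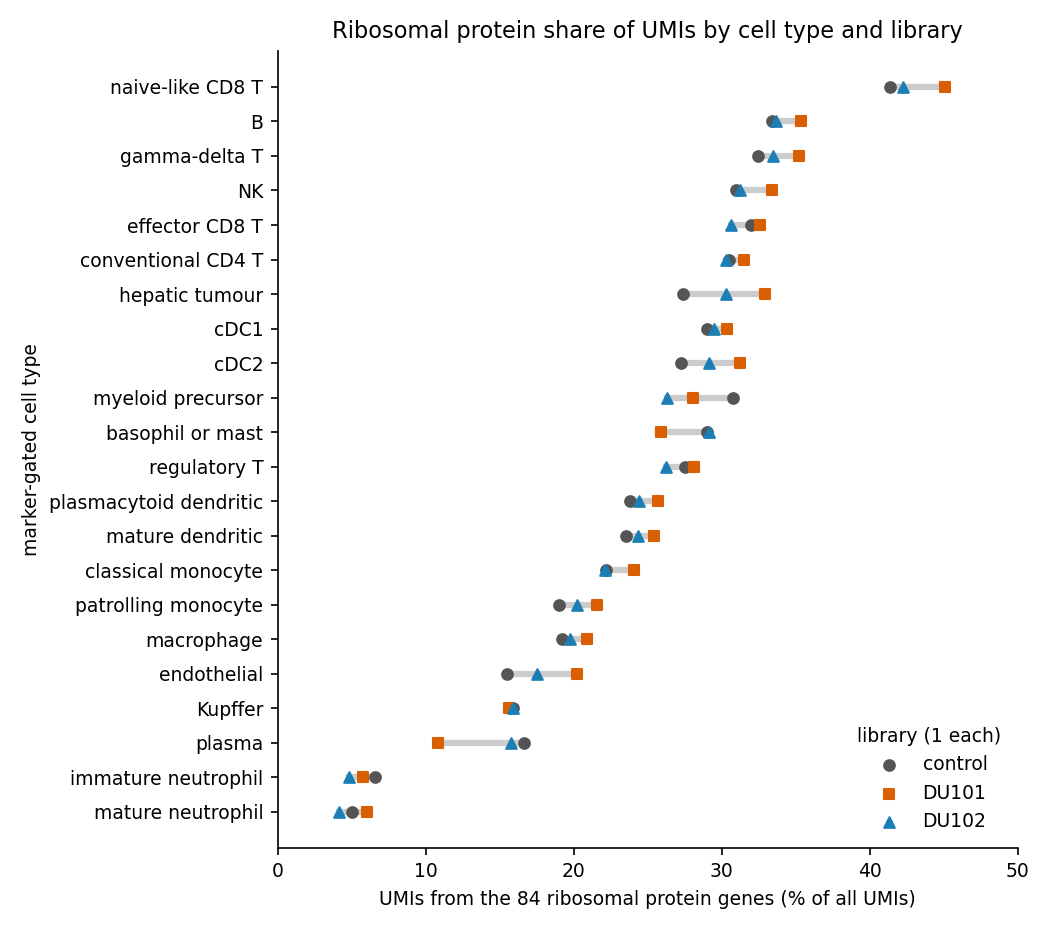
Percent of all UMIs that came from the 84 ribosomal protein genes (x axis) in 22 marker-gated cell types (y axis, ordered by the mean of 3 libraries), with 1 point per library and a grey bar from lowest to highest. Naive-like CD8 T cells lie above 41% in all 3 libraries and both neutrophil groups below 7%.

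The order was not resolved at every step. The ranges over the 3 libraries overlapped in 17 of the 21 neighbouring pairs, and the 4 gaps followed naive-like CD8 T, regulatory T, classical monocytes and plasma cells. Plasma cells, which secrete antibody, averaged 14.4% ± 3.14, and immunoglobulin genes took 43.0%, 51.7% and 39.6% of their UMIs in control, DU101 and DU102. As every share is out of a fixed total, a lower share and a higher level of other RNA cannot be told apart. Myeloid precursors were uneven between libraries, with a median depth of 33243 UMIs per cell in control and 858 in DU102, and their 28.4% ± 2.23 is given with that difference. The balance of the subunits moved far less than the total: large subunit genes gave 1.03 to 1.28 UMIs for each small subunit UMI over all 22 cell types and libraries.

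Rpl29 was the member that differed most between libraries. Rpl29 is a small basic protein of the large subunit, also known as a heparin-binding protein, and its gene lies at chr9:106428889-106431568 (RefSeq, GRCm38.p6). Among gated cells Rpl29 made up 0.0192%, 0.218% and 0.0193% of family UMIs in control, DU101 and DU102, against 1.13%, 1.13% and 1.18% for Rplp0. Whether these counts give the full level of Rpl29 mRNA was not tested. In NK cells the level of Rpl29 was 58.45 CPM (UMIs of the gene per 1000000 UMIs) in control, 1038 CPM in DU101 and 58.8 CPM in DU102. In tumour cells it was 63.9 CPM in control, 892 CPM in DU101 and 68.5 CPM in DU102. Control and DU102 lay close together and DU101 lay far above both, in immune and tumour cells alike. In effector CD8 T cells it was 55.5, 686 and 51.7 CPM in control, DU101 and DU102, in macrophages 45.2, 599 and 44.4 CPM, and in mature neutrophils 11.5, 108 and 6.29 CPM. The DU101 interval lay above both others in 22 of 22 cell types. Over the 14 cell types with at least 100 cells in every library, the ratio of DU101 to control was 6.42 to 17.8 with a median of 13.6, and that of DU101 to DU102 was 5.75 to 21.3 with a median of 14.0. DU102 over control was 0.547 to 1.201 with a median of 0.994, and its interval held 1 in all but 1 of these cell types.

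Few features of any kind behaved in this way. Of 4162 features measured in all 14 cell types, 4 were at least 4-fold higher in DU101 than in both other libraries in every one. These were Rpl29 and the plasma cell genes Jchain, Igkc and Igha, named after their values were seen. At 1.5-fold or more, 2 were lower in DU101 than in both others in every one, Gm10260 and Gm42418. A feature was measured at 30 UMIs over the 2 libraries compared, so a feature high in DU101 could pass through DU101 alone. Rpl29 did so in mature neutrophils, with 28, 154 and 15 UMIs in control, DU101 and DU102, so the count of 4 is a description. DU101 also held 341 plasma cells, against 34 in control and 49 in DU102, and immunoglobulin genes took 0.338% of its NK cell UMIs against 0.0222% in control. Rpl29 itself was at 152 CPM in the plasma cells of DU101, lower than in every other cell type of that library but the neutrophils, and the part of plasma cell RNA in its level was not tested. The mix of sex-linked transcripts also differed between DU101 and control, and its part was not tested. Control cells with Y-linked and no Xist UMIs had 50.3 CPM, those with the reverse 49.4 CPM, and the DU101 cells with Y-linked UMIs 543 CPM. All 10 ways tried of choosing cells and cell types gave intervals above 1 for DU101 over control and over DU102 in every cell type that could be compared. The 10 include the main choice, and taking only control cells with Y-linked and no Xist UMIs cannot change DU101 over DU102.

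Within DU101, Rpl29 was also uneven between cells of 1 type. In its 309 cDC1, 43 cells (13.9%) had no Rpl29 UMI, while a single rate shared by all of them would leave 0.493% without one. The same comparison gave 14.4% against 5.44% in tumour cells and 30.5% against 7.71% in effector CD8 T cells. The observed share was more than 5 percentage points above the shared-rate value in 20 of 22 cell types in DU101, in 3 in control and in 0 in DU102. Rpl22l1, the member nearest in level over all DU101 cells (613 against 548 CPM), was that far above it in 12 to 14 cell types in each library, with 1.62% against 0.857% in cDC1 of DU101. Counts more uneven than a single rate were thus seen for Rpl22l1 too. For Rpl29 in control and DU102, a single rate would already leave 70.3% and 74.0% of effector CD8 T cells without a UMI. Uneven cells shift this share little at so low a level, so the counts of 3 and 0 do not compare evenness between libraries. Which mouse gave which cell is not recorded in the labels.

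**Figure D2:**
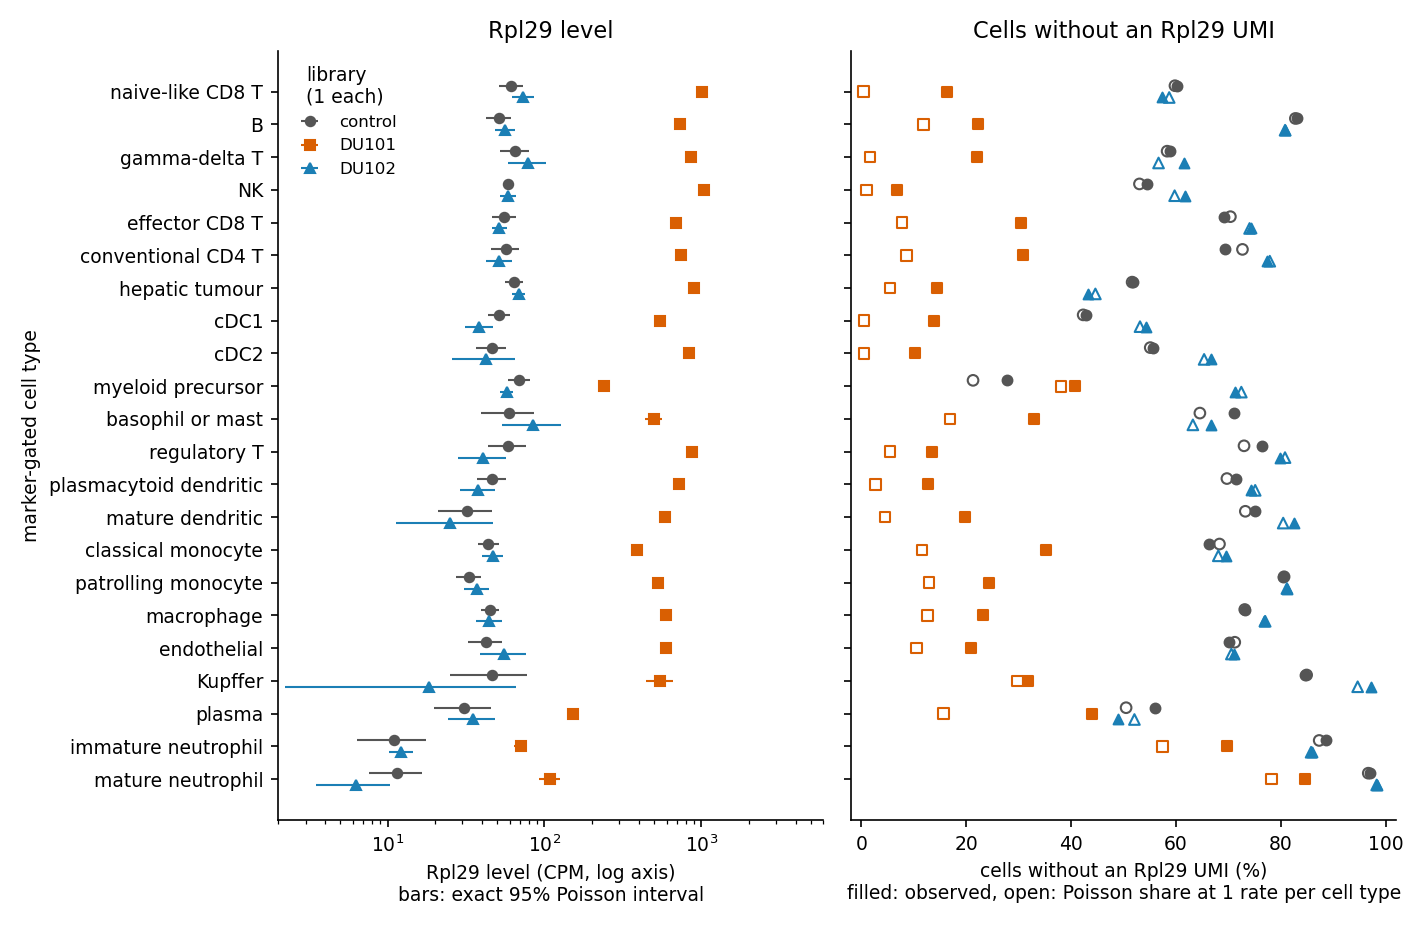
Left, Rpl29 level in CPM (log axis) in 22 cell types and 3 libraries with exact 95% Poisson intervals. Right, the percent of cells without an Rpl29 UMI, observed (filled) and as a single rate per cell type would give (open); DU101 (orange squares) lies 5-fold or more above both other libraries on the left in all but the myeloid precursors and plasma cells, and its filled points lie to the right of its open points.

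In most cell types the share of the whole family differed little between treated and control libraries. The share of DU101 over that of control was 0.875 to 1.203 in the 14 cell types, with a median of 1.08, and was above 1 beyond counting error in 13 of them. Tumour cells (27.4% in control and 32.9% in DU101) and mature neutrophils (5.02% and 6.04%) had the highest ratios, and immature neutrophils (6.58% and 5.75%) the only one below 1. DU102 over control was 0.731 to 1.11 with a median of 1.01, higher in 8 cell types and lower in 5. Both neutrophil groups stood lowest there, with 0.822 in mature and 0.731 in immature cells, and tumour cells highest with 1.11. With markers counted as present at 1 UMI, the rule first planned, the mature neutrophil value turned to 0.48 on the log2 scale. The share was higher in DU101 than in DU102 in 14 of 14 cell types, by 1.03-fold to 1.46-fold. Leaving Rpl29 out changed none of these counts.

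Other measures moved with these small ratios. Genes that overlap ribosomal RNA (Gm42418, Gm26917, AY036118 and Lars2) took 2.42 to 7.17% of UMIs in control, 0.821 to 3.56% in DU101 and 2.11 to 5.92% in DU102 over the 14 cell types, and were lowest in DU101 in 22 of 22 cell types. Without those genes and mitochondrial, immunoglobulin and haemoglobin genes in the total, DU101 over control was higher in 10 cell types and lower in 4, with a median of 1.03, and DU102 over control was higher in 4 and lower in 8. In control NK cells the share was 34.9% in cells with Y-linked and no Xist UMIs and 29.8% in those with the reverse, a wider gap than that between DU101 (33.4%) and control (30.9%). Only the neutrophil groups went the other way, at 4.998% and 8.50% in mature cells and 6.47% and 7.26% in immature cells. Just 6 immature neutrophils of control had Xist and no Y-linked UMIs. Against control cells with Y-linked and no Xist UMIs alone, the ratio was above 1 in 6 of 14 cell types for DU101 and in 2 for DU102. DU101 stayed above DU102 in 14 of 14 with the reduced total, by 1.005-fold to 1.435-fold. The part of these measures in the ratios was not tested.

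**Figure D3:**
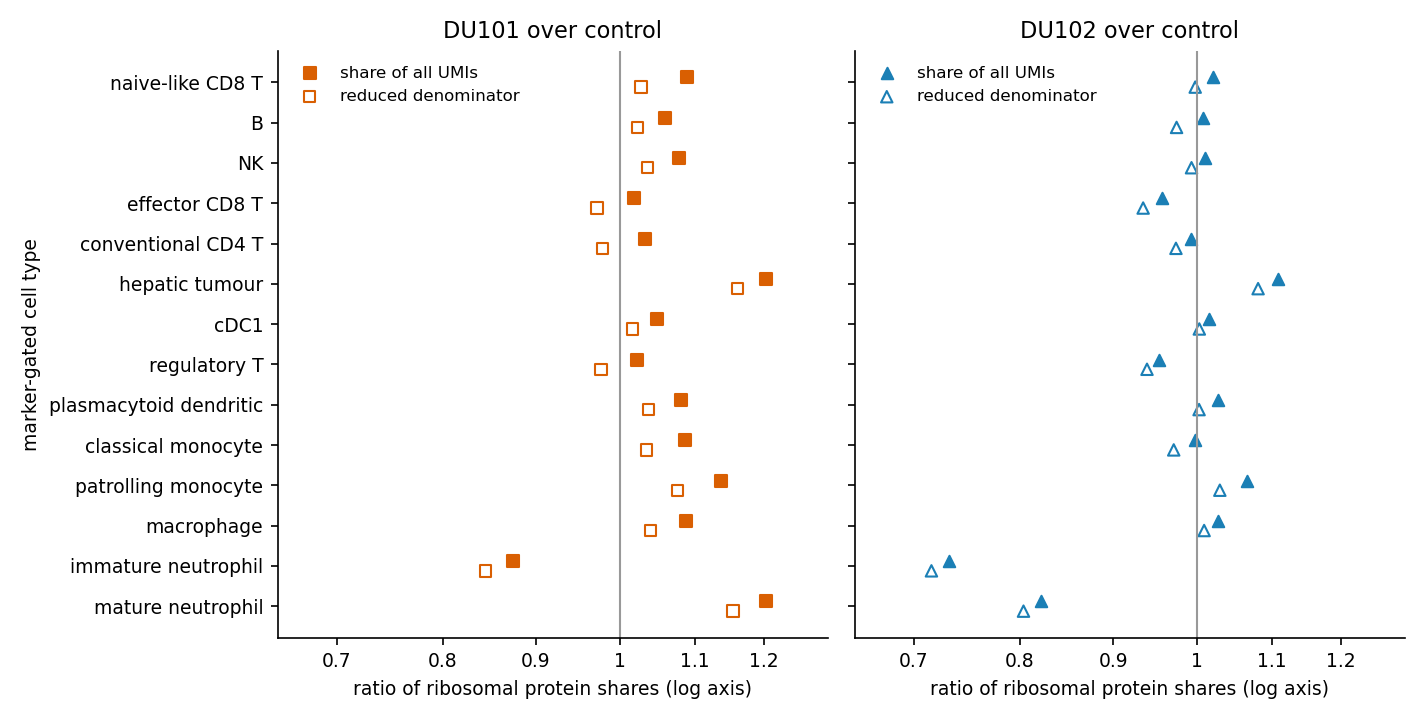
Ratio of the ribosomal protein share in DU101 (left) or DU102 (right) to that in control, on a log axis, in 14 cell types, out of all UMIs (filled) and out of a total without mitochondrial, immunoglobulin, haemoglobin and rRNA-overlapping genes (open). The neutrophil groups and tumour cells reach furthest from 1, down to 0.731 (filled) and 0.716 (open) in immature neutrophils of DU102.

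Gene by gene, a member was called at 1.5-fold or more with its interval on 1 side of 1, a rule of size and not a test. In DU101 over control 22 of 1139 member and cell type pairs were called higher and 1 lower, where 4.08% and 6.86% of all gene and cell type pairs were called. In DU102 over control 0 of 1140 were higher and 18 lower, against 4.44% and 4.41%. In DU101 over DU102 61 of 1139 were higher and 1 lower, against 3.69% and 6.65%. Both treated libraries are set against the same control. Rpl29 gave 14 of the 22 and 14 of the 61, so that 8 and 47 pairs of other members were called higher.

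In DU101 over control 7 of the 8 were in mature neutrophils, among them Rps20 (0.78 on the log2 scale), Rpl36al (0.76) and Rpl10a (0.65), and the other was Rps27l in B cells (0.67). With Rpl29 this made 8 of 82 members in mature neutrophils, near the 7.23% of all genes called higher there. In DU101 over DU102 45 of the 47 were in mature neutrophils. With Rpl29 this made 46 of 82 members, against 10.6% of all genes called higher there, and the median member was 0.63 higher on the log2 scale against 0.08 for all genes. In DU102 over control 13 of the 18 lower pairs were in immature neutrophils, with Rps6 lowest at -0.70 and Rpl10a at -0.69, and a median of -0.47 against -0.16 for all genes. These were 13 of 82 members, where 10.9% of all genes were called lower. Another 4 of 82 were in mature neutrophils, among them Rpl3l at -0.91, a smaller share than the 15.1% of all genes called lower there. The remaining pair was Rps2 in regulatory T cells, at -0.60. Per cell, the median share in mature neutrophils was 4.13%, 4.43% and 3.81% in control, DU101 and DU102, and the 95th percentile was 8.39%, 11.2% and 7.28%. The upper tail thus differed more than the typical cell, at median depths of 2579, 1929.5 and 2257 UMIs, and the part of depth was not tested. With TMM factors, which scale each cell type to its typical gene, 36 pairs, Rpl29's included, were higher in DU101 over DU102 and 3 lower in DU102 over control. Rps2 and Rps18, small subunit proteins, were the next most often called in DU101 over DU102, each in 2 cell types. Rps2 had a median log2 ratio of 0.43 and Rps18 of 0.44 over the 14 cell types. The pairs called lower in DU101 were Rpl39l in NK cells, with 5 UMIs against 38 in control, and Rpl39l in effector CD8 T cells, with 5 against 48 in DU102.

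Members differed in how evenly they were used. Across the 22 cell types, the share of family UMIs differed between the highest and lowest cell type by under 2-fold for 56 of 83 members, by 2-fold to under 4-fold for 20 and by 4-fold or more for 7, with a median of 1.70-fold. Of the stalk proteins, which recruit elongation factors, Rplp2 varied 1.34-fold, Rplp0 1.69-fold and Rplp1 2.05-fold. Rpl5 and Rpl11, which form the 5S particle and bind Mdm2 when ribosome assembly stalls, varied 1.52-fold and 1.32-fold. Rpl38, known for its part in the translation of Hox mRNAs, varied 1.35-fold. On the small subunit, Rps6, the substrate of S6 kinase, varied 1.80-fold and Rpsa, also known as a laminin receptor, 1.78-fold. The X-linked members Rps4x, Rpl39, Rpl36a and Rpl10 varied 1.67-fold, 1.52-fold, 2.00-fold and 2.38-fold. Rpl10 was highest in plasma cells, at 1.63%, 1.55% and 1.64% of family UMIs in control, DU101 and DU102, and lowest in naive-like CD8 T cells, at 0.652%, 0.661% and 0.676%.

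The widest spreads were held by paralogues and by Rps9 and Rpl31. Rpl3l, known as the striated muscle form of Rpl3, had 50, 29 and 26 UMIs in mature neutrophils of control, DU101 and DU102, which made 9.31%, 7.29% and 6.16% of the Rpl3 and Rpl3l total there. In tumour cells it had 0, 1 and 2 UMIs against 7647, 12174 and 16288 of Rpl3. Rpl39l, known from testis, had 348 UMIs in all, 152 in control, 44 in DU101 and 152 in DU102, too few to order cell types. Rpl7l1, which acts in assembly of the large subunit, made up 0.0515% of family UMIs in immature neutrophils and 0.0107% in naive-like CD8 T cells. Rps9, a core protein of the small subunit, made up 5.94%, 4.08% and 6.56% of family UMIs in mature neutrophils and 1.14%, 1.102% and 1.28% in plasma cells. Rpl31, at the exit of the peptide tunnel, made up 1.66%, 1.64% and 1.77% in plasmacytoid dendritic cells and 0.380%, 0.390% and 0.421% in B cells. For Rps9 and Rpl31 the 3 libraries of the higher cell type lay above the 3 of the lower one, which picking the highest and lowest cell type favours. The evenly used Rps21 was apart as well, at 1.77 to 1.85% in B cells and 1.27 to 1.44% in Kupffer cells.

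Rps27l, a paralogue of Rps27 known as a target of p53, had its highest part of the pair in tumour cells. It gave 29.2%, 28.6% and 28.7% of the Rps27 and Rps27l UMIs there in control, DU101 and DU102, and the exact 95% interval in control was 28.5 to 29.97%. Mature dendritic cells had 27.0%, 24.6% and 18.7%, plasma cells 22.5%, 24.0% and 19.9%, and myeloid precursors 14.99%, 17.7% and 18.1%. Resting lymphocytes lay at the other end, with 0.735%, 1.18% and 1.22% in B cells and 1.24%, 1.47% and 1.01% in naive-like CD8 T cells. Among T cells, those with Mki67 and Top2a UMIs had 6.50%, 7.95% and 6.88% and those with neither had 1.52%, 1.62% and 1.46%. Dividing and non-dividing cells did not overlap, and the difference between cell types was far wider than that between libraries.

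Rpl36al, the autosomal retrogene of X-linked Rpl36a, followed another order. Its part of the pair was highest in plasma cells, at 60.2%, 69.4% and 61.3% in control, DU101 and DU102. Classical monocytes had 52.2%, 52.8% and 51.6%, and naive-like CD8 T cells 24.0%, 26.7% and 23.4%. Rpl22l1, the paralogue of Rpl22, a protein needed for normal development of alpha-beta T cells, was highest in tumour cells, at 37.7%, 37.3% and 37.9%. Immature neutrophils followed at 35.9%, 35.5% and 31.8%. Mature dendritic cells, at 17.3%, 16.1% and 13.0%, and cDC1, at 17.4%, 15.2% and 17.0%, were lowest, and their order differed between libraries. These shares compare 3′ tags of both genes in the same cells, and reads that fit pseudogenes as well were assigned by the authors' counting.

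**Figure D4:**
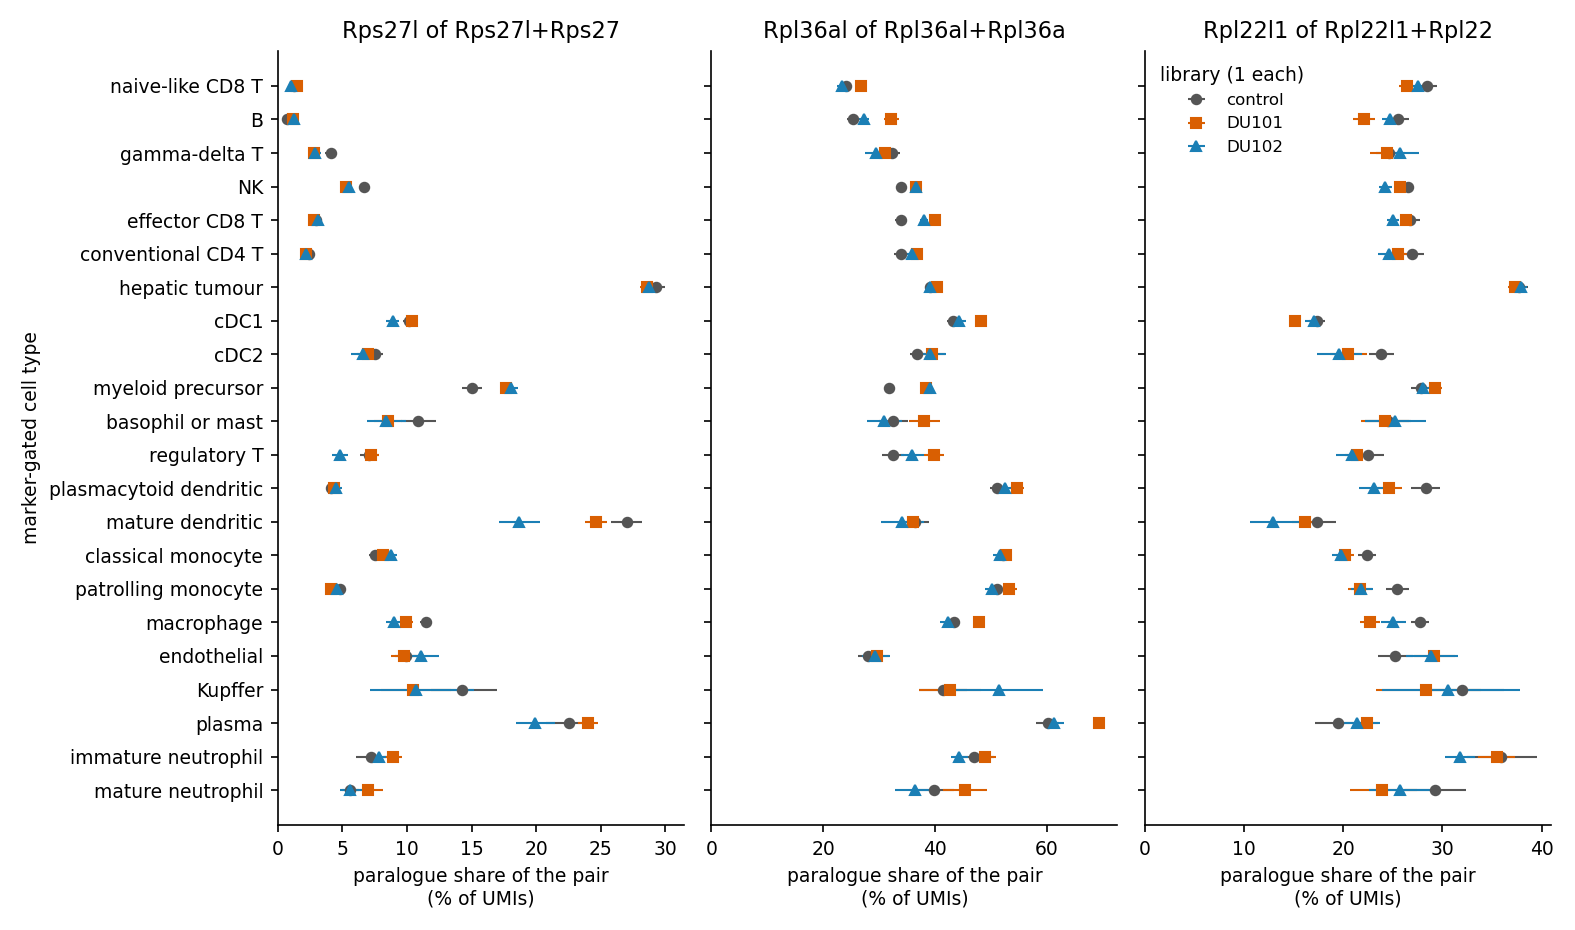
Share of a paralogue in the UMIs of its pair (x axis, percent, with exact 95% intervals) for Rps27l, Rpl36al and Rpl22l1 in 22 cell types and 3 libraries, cell types ordered by family share. Rps27l peaks in tumour, mature dendritic and plasma cells, Rpl36al in plasma cells and Rpl22l1 in tumour cells and immature neutrophils.

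Cell types were then compared with the 3 libraries as replicates, by edgeR's quasi-likelihood test with the library as a block and Benjamini-Hochberg adjustment over all genes tested. The p-values measure how steady the difference between cell types was over these 3 libraries, as the block takes up differences between the libraries themselves. These are 1 control, 1 DU101 and 1 DU102 library, and the labels do not say that they are separate animals. CPM are per total UMIs while the log2 changes use TMM factors, so they can differ in size. In effector against naive-like CD8 T cells 78 of 82 tested members fell and 1 rose, where 12.2% of 9124 genes fell and 12.9% rose. The median member changed by -0.62 on the log2 scale against -0.01 for all genes, and by -0.42 against 0.20 when scaled by total UMIs. Rps20 fell most, from 8687, 9339 and 8628 CPM in naive-like cells of control, DU101 and DU102 to 5048, 4849 and 4694 CPM in effector cells. The log2 change of Rps20 was -1.07 ± 0.05 (SE, edgeR adjusted p = 1.65e-10). Rpl36a (-0.997) and Rps19 (-0.92), a protein mutated in Diamond-Blackfan anaemia, followed. The stalk proteins Rplp1, Rplp2 and Rplp0 fell by 0.89, 0.75 and 0.67 on the log2 scale, and Rps6 and Rpsa both by 0.64. Rpl27, Rpl36al and Rpl39l passed in neither direction. Rps27l was the member that rose, from 120, 157 and 106 CPM to 209, 228 and 222 CPM, a log2 change of 0.59 ± 0.10 (edgeR adjusted p = 0.000368). With cells taken from joint clusters in place of gates, Rps27l changed by 0.22 and did not pass.

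Genes around the ribosome fell with the family in this comparison. Of 30 ribosome biogenesis genes 20 fell and 0 rose, with a median of -0.54 on the log2 scale, and 8 of 9 snoRNA host genes fell, with a median of -0.61. Of the 18 TOP genes outside the ribosome, such as elongation factors, 11 fell. Fau and Rack1, ribosomal proteins under other names, both fell. Mitochondrial ribosomal proteins, which serve the separate ribosomes of mitochondria, did not move as a group: 4 of 78 rose and 7 fell, with a median of 0.01.

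Dividing T cells had lower levels of most cytosolic members and higher levels of most mitochondrial ones. Against T cells with no Mki67 or Top2a UMIs, 60 of 82 members fell and 6 rose, where 22.4% of 10599 genes fell and 25.7% rose. Rps27 fell most among them, from 8682, 9327 and 8888 CPM to 4799, 4661 and 4514 CPM, a log2 change of -0.96 ± 0.03 (edgeR adjusted p = 6.63e-12). Rps24 and Rpl30 followed at -0.56 and -0.55. Rps27l rose instead, from 134, 154 and 132 CPM to 333.5, 402 and 334 CPM, a log2 change of 1.33 ± 0.06 (edgeR adjusted p = 8.71e-10). Rps2 rose by 0.33, Rpl7l1 by 0.26, Rpl28 by 0.22 and Rpl41 by 0.21. The median member changed by -0.24. Both groups pooled T cells of all types, naive-like CD8 T cells with their high family share among them, and the mix was not matched. Median depth was 13714, 10579 and 11661 UMIs in dividing cells of control, DU101 and DU102, and 5124, 3919.5 and 4478 in non-dividing cells. The parts of T cell type and of depth in these changes were not tested. Of 78 mitochondrial ribosomal proteins 62 rose and 2 fell, with a median of 0.51. Of 30 ribosome biogenesis genes 13 rose and 0 fell, and of 26 initiation factors 17 rose and 1 fell. Without the library block 38 members fell and 1 rose, and with T cells taken from joint clusters in place of gates 8 fell and 1 rose. Rpl7l1 then changed by -0.02, and with the gates it did not pass without control (0.18) or without DU102 (0.29).

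Mature neutrophils had lower levels of nearly every member than classical monocytes. By the test, 80 of 82 members fell and 1 rose, where 34.6% of 9258 genes fell and 32.9% rose, and the median member changed by -1.68 on the log2 scale against -0.11 for all genes (-2.32 against -0.75 when scaled by total UMIs). Rpl36al fell from 1140, 1283 and 1148 CPM in monocytes of control, DU101 and DU102 to 122, 206 and 102.3 CPM, a log2 change of -2.48 ± 0.17 (edgeR adjusted p = 3.23e-09). Rpl10 (-2.26) and Rpl10a (-2.25) followed. Rps9 was the member that passed in neither direction, at 2984, 2465 and 2707 CPM in neutrophils against 5431, 4964 and 5222 CPM in monocytes (-0.31, edgeR adjusted p = 0.0835). Rpl3l rose by 1.47 ± 0.26 (edgeR adjusted p = 9.85e-05), on 20.5, 20.3 and 10.9 CPM against 10.99, 8.09 and 8.88 CPM, so that the groups overlapped narrowly. Mitochondrial ribosomal proteins fell in 73 of 77 cases here, with a median of -1.28, while 3 of 4 genes that overlap ribosomal RNA rose. With markers counted as present at 1 UMI, a looser gate, 46 members fell and 0 rose.

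Between plasma and B cells, the paralogues Rps27l and Rpl36al changed most. Of 81 tested members 11 fell and 4 rose, where 21.6% of 8360 genes fell and 21.5% rose. Rps27l rose from 86.8, 138 and 127.5 CPM in B cells of control, DU101 and DU102 to 642, 545 and 545.5 CPM, a log2 change of 3.30 ± 0.24 (edgeR adjusted p = 3.65e-06). Rpl36al rose by 1.91 ± 0.23 (edgeR adjusted p = 9.61e-05), from 716, 954 and 818 CPM to 1643, 1403 and 1675 CPM. For both genes the CPM, which are per total UMIs, show a smaller rise than the log2 change, which uses TMM factors. Rpl41 and Rpl10 rose by 0.91 and 0.88 but changed by -0.08 and -0.11 when scaled by total UMIs, and neither passed without control (0.71 and 0.65) or without DU102 (0.91 and 0.85). Rps27 fell by 1.48 on the log2 scale, Rps19 by 0.99 and Rpl12 by 0.98, and none of these passed without DU102 (-1.55, -1.03 and -1.06). The median member changed by -0.30 against -0.07 for all genes, and total-UMI scaling lowered both, to -1.29 and -1.06. Of 77 mitochondrial ribosomal proteins 35 rose, and of 26 initiation factors 13 rose. There were 34 to 341 plasma cells per library. The number of members that fell was 5 without DU101, 4 without control and 0 without DU102, and it was 74 with total-UMI scaling. Leaving out a library also leaves the test fewer samples, and without DU102 the changes of Rps27, Rps19 and Rpl12 were no smaller.

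**Figure D5:**
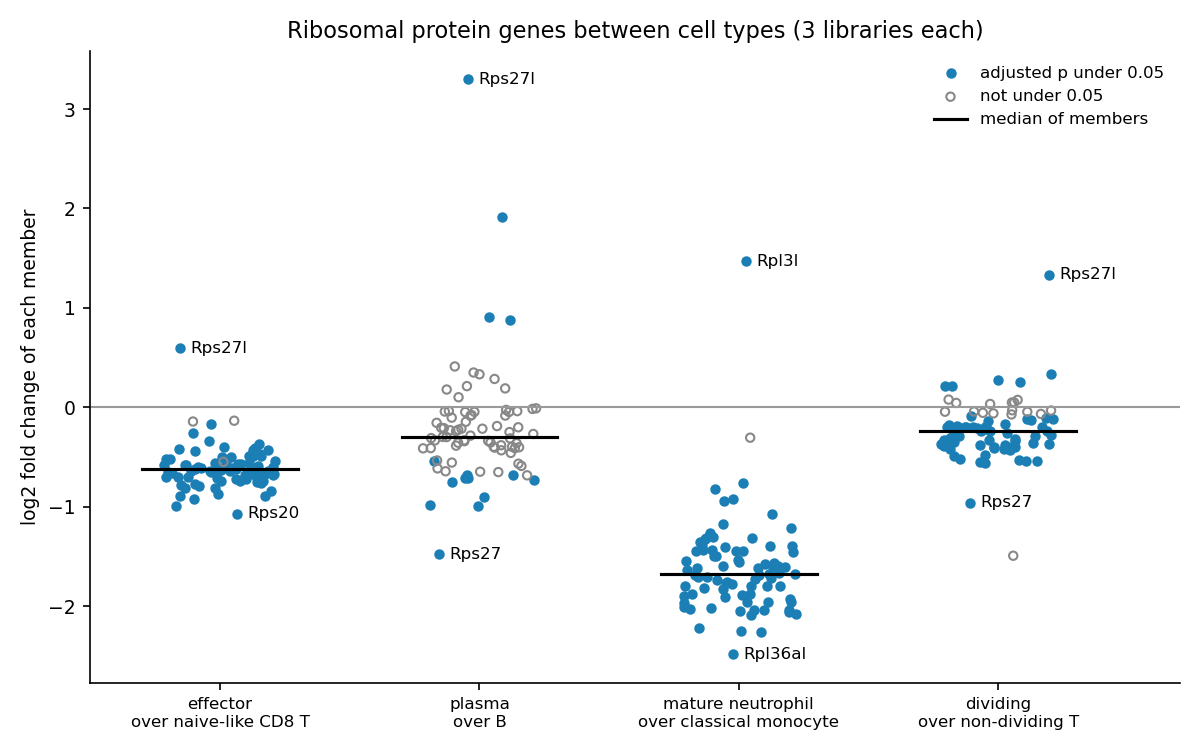
The log2 fold change of each tested ribosomal protein gene (points) in 4 comparisons of cell types over 3 libraries by edgeR, filled where the adjusted p was under 0.05, with a bar at the median of the members. Rps27l is the highest member in 3 of the 4 comparisons, and the bar lies at -1.68 for mature neutrophils over classical monocytes.

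Members with and without a pyrimidine run near the start had similar medians. In effector against naive-like CD8 T cells the median was -0.62 for both the 50 with a run and the 12 without, and in mature neutrophils against classical monocytes it was -1.69 for 49 and -1.62 for 13. In dividing T cells it was -0.30 and -0.20, and in plasma cells -0.31 and -0.18. These are descriptions without a test.

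Outside the family, 528 genes had at least 50 CPM in each of the 14 cell types and 3 libraries, and were ranked by how their level followed the family share over those 42 points. Rack1, a ribosomal protein of the small subunit by another name, was among the closest (Spearman's rho 0.95). The elongation factor genes Eef1a1 (0.88) and Eef1b2 (0.85) were also near the top, then Snrpg (0.83), Prpf4b (0.81), Pabpn1 (0.81) and the snoRNA host gene Gas5 (0.76). The points share libraries and depth and all shares add to the same total, so these are descriptions.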

How the data were processed

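The deposited matrices are raw UMI counts per gene and barcode. Cell Ranger is named as 6.0.0 per the file headers and as 2.1.1, with mm10, per the submitters' processing notes. Cells needed 200 genes or more and 10% mitochondrial UMIs or less, and Scrublet doublets were removed (scanpy 1.11.5). No gene annotation release is named, and 300 ribosomal protein pseudogenes marked -ps in GENCODE M21, 5 of them in the feature table, leave the level of a single member uncertain. A marker counted as present at or above its share of all UMIs, a rule changed after the data were seen. The members and lists were chosen with earlier results of these data known. Named members are the 6 with the widest spread, the 4 called most often per library comparison, the 3 highest and lowest per cell type comparison and those fixed by role. Shares carry exact 95% intervals, ratios need 30 UMIs, and the floor for 0 counts is 3. Cell types were tested on counts summed by library, with edgeR 4.0.16 (TMM, filterByExpr, threshold 0.05) in R 4.3.3, checked on simulated data. The alternatives, with DESeq2 1.42.0 among them, are in the closing section. Some genes that these rules name are not reported here.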

Additional observations from a re-analysis of the deposited data

Results flagged for a closer look

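With all UMIs as the total, the family share moved in 6 cases against the direction of most cell types in the same comparison, beyond counting error. In DU101 over control, where 13 of 14 cell types were above 1, immature neutrophils had a ratio of 0.875, but their log2 ratio was 0.033 in cells of 2000 to 10000 UMIs. In DU102 over control, where 8 of 14 were above 1, the ratio was 0.957 in effector CD8 T cells, 0.993 in conventional CD4 T cells, 0.953 in regulatory T cells, 0.822 in mature neutrophils and 0.731 in immature neutrophils. The majority itself turned with the reduced total, with 4 cell types higher and 8 lower, and against control cells with Y-linked and no Xist UMIs, where 2 of 14 were above 1, so these 5 cases then lay with it. The difference between cell types was not tested, since each group has 1 library.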

How the results depend on the processing

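No paired analysis was possible because each group has 1 library, and the number 1 that all share pairs nothing. Control cells with Y-linked and no Xist UMIs: higher cell types 6 for DU101 and 2 for DU102, DU102 member pairs higher 1. Reversed log2 shares of DU101 over those cells were -0.033 effector CD8 T, -0.15 conventional CD4 T, -0.20 regulatory T, -0.064 NK, -0.07 B, -0.098 cDC1 and -0.081 plasmacytoid dendritic. Those of DU102 were -0.049 naive-like CD8 T, -0.16 NK, -0.14 B, -0.041 macrophage, -0.14 cDC1 and -0.15 plasmacytoid dendritic. Reduced denominator (counting any ratio above 1): DU102 higher in 5, DU101 pairs lower 2. Its reversed values were -0.041, -0.031 and -0.034 in effector CD8, CD4 and regulatory T cells (DU101), and -0.0027, -0.0094 and -0.037 in naive-like CD8 T, NK and B cells (DU102). Cells of 2000 to 10000 UMIs gave 0.033 in immature neutrophils (DU101), and 0.0029 and -0.10 in regulatory T and cDC1 (DU102). Markers at 1 UMI gave 0.016, 0.48 and -0.044 in conventional CD4 T cells, mature neutrophils and macrophages (DU102), and clusters -0.0081 in NK cells (DU102).

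Member pairs at 1.2-fold: DU101 over control 138 higher and 26 lower, DU102 over control 13 and 137, DU101 over DU102 170 higher. Without a UMI minimum, lower pairs were 5 for DU101 over control and 4 for DU101 over DU102, and higher pairs 2 for DU102 over control. TMM factors left 3 lower (DU102 over control) and 36 higher (DU101 over DU102). Clusters gave 0 higher in effector CD8 T, 20 lower in plasma, and 1 higher and 8 lower in dividing T cells. Without the library block, dividing T cells had 1 higher and 38 lower. In plasma cells, total UMIs gave 2 higher (Rpl10 -0.11, Rpl41 -0.08) and 74 lower, doublets kept 5 lower, markers at 1 UMI 31 lower and no filter 20 lower. Leaving out 1 library gave 2 to 5 higher and 0 to 5 lower in plasma cells. Markers at 1 UMI gave 0 higher and 46 lower in mature neutrophils. Rpl7l1 in dividing T cells by clusters was -0.02. The causes were not tested. The other 142 alternative values of these counts stayed within 1.5 times the main count. Markers at 1 UMI were the rule first planned and became an alternative when the main rule was changed after the data were seen. The reduced denominator for member pairs was chosen after seeing the data.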
